A study of Homo sapiens with 12 samples.

Results

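The HOX genes were followed in MNNG/HOS osteosarcoma cells exposed to NXP800. They were taken as every symbol made of HOX, a cluster letter from A to D and a number, which gave 39 genes of the 43236 gene symbols counted, with 11 in the HOXA cluster, 10 in HOXB, 9 in HOXC and 9 in HOXD. Of these, 35 passed the filter on low counts and were tested, and HOXB1, HOXD10, HOXD11 and HOXD12 were not. MNNG/HOS is an established human osteosarcoma line that was made from HOS cells by chemical transformation, so that all 12 libraries came from 1 cell line. NXP800 is an orally available small molecule that the study examined as an activator of the kinase GCN2 and of the stress responses downstream of it. Polyadenylated RNA was sequenced after 6 h or 24 h with NXP800, at 300 nM per the study's methods, or with its solvent DMSO, giving 4 groups (DMSO 6 h, NXP800 6 h, DMSO 24 h, NXP800 24 h) of 3 libraries each. The study's methods describe its experiments in general as independent, and neither the labels nor the sequencing methods say whether the libraries of a group came from separate cultures. If they did not, p-values measure only the spread between these libraries, which may be technical.

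HOX genes encode homeodomain transcription factors that give cells their position along the body axis and along the limb. They lie in clusters in which the order on the chromosome follows the order of expression, from low-numbered genes at the head end to high-numbered genes at the tail end and in the distal limb, and genes of the same number in different clusters are paralogs. HOX proteins bind DNA together with TALE homeodomain partners (PBX, MEIS and PKNOX), and the clusters are classical targets of Polycomb repressors, of Trithorax and MLL activators and of retinoic acid. Mesenchymal cells, bone cells among them, keep a HOX pattern of the body site they come from.

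The libraries held 30810614 to 31947656 counts on genes. Reads outside annotated genes made up 6.66 to 8.14% of the 6 h libraries and 2.73 to 3.67% of the 24 h libraries, so that time and library set cannot be told apart. Levels are given as CPM, counts relative to the library's total scaled by the TMM method, and levels of different genes are compared only as CPM per kilobase of exon (RPKM). Of 9 osteoblast lineage markers, RUNX2, COL1A1, SPARC and SPP1 were tested and present (SPARC at 549 CPM with DMSO at 6 h), whereas SP7 and BGLAP had no count in the DMSO libraries and ALPL, COL1A2 and IBSP averaged at most 0.302 CPM with DMSO. Of 11 markers of other cell types, EPCAM was the only one above 1 CPM, with means from 5.78 to 10.1 CPM over the 4 groups. Their levels moved with NXP800: the summed osteoblast markers read 765 to 953 CPM with DMSO and 518 to 612 CPM with NXP800 at 6 h, and 898 to 1083 and 398 to 467 CPM at 24 h. Most of that sum was SPARC and COL1A1, which fell, whereas RUNX2, the osteoblast lineage regulator, rose at both times (log2 fold change 0.71, adjusted p = 4.08e-05 at 6 h, and 0.36, adjusted p = 0.00879 at 24 h), and SPP1 fell at 24 h and was not called at 6 h. The summed epithelial markers, nearly all EPCAM, overlapped at 6 h (5.62 to 6.49 and 6.26 to 7.07 CPM) and rose at 24 h (5.72 to 5.91 and 10.1 to 10.2 CPM), and the 3 endothelial markers summed to 1.25 to 1.83 and 0.522 to 0.887 CPM at 6 h and 1.00 to 1.18 and 0.264 to 0.542 CPM at 24 h. The 3 leukocyte and 2 neural markers summed to at most 0.231 CPM in any library, with SOX10 at 0 in all 12. The part of these shifts in the HOX results was not tested.

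The promoter sequences of 3 members are shown because these genes mark the contrasting responses described below: HOXA13 and HOXA4 fell with NXP800 at 6 h, whereas HOXD8 rose. The HOXD8 rise at 6 h was small, and its call was lost without some libraries, as given below. HOXB9, HOXB2 and HOXD9, the other genes called higher at 6 h, had no entry among the promoter sequences used. Each sequence is the 250 bases before the annotated start (RefSeq, GRCh38.p14), read 5′ to 3′ on the strand of the gene, with capitals marking every match to 1 of 10 motifs searched on both strands.
HOXA13, chr7:27200092-27200341, minus strand: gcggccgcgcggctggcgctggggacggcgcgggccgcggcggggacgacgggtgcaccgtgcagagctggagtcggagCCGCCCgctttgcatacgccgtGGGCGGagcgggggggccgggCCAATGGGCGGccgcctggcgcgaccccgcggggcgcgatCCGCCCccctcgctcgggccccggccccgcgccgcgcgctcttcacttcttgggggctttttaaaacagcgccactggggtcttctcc
HOXA4, chr7:27130758-27131007, minus strand: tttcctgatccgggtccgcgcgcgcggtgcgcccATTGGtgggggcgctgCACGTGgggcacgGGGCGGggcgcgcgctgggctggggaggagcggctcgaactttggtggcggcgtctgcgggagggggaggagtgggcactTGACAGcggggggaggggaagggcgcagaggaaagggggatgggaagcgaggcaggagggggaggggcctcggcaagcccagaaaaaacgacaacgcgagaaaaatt
HOXD8, chr2:176129455-176129704, plus strand: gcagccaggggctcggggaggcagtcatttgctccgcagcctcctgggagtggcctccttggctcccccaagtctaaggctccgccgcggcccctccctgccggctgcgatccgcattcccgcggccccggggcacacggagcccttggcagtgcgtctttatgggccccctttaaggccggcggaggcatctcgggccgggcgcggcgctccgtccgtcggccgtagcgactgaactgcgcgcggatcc
The HOXA13 window held 4 GC boxes (GGGCGG) and 1 CCAAT box, which adjoins 1 of the GC boxes. In the HOXA4 window the capitals mark 1 CCAAT box, 1 E-box (CACGTG), 1 GC box and 1 MEIS site (TGACAG). The HOXD8 window held none of the 10 motifs. GC boxes were in 42.5% of the 34943 promoter windows of the same length in the RefSeq table, CCAAT in 32.0%, CACGTG in 6.32% and TGACAG in 13.1%. The other motifs searched were TATAAA (10.8% of all windows), TGACGTCA (1.63%), TGANTCA (6.59%), TGATGNAA (3.15%), TGATTNAT (2.49%) and GAANNTTC (5.80%). HOXA13 had 40 CG dinucleotides in these 250 bases, HOXA4 had 26 and HOXD8 had 28, beside a median of 11 over all windows and of 19.5 over the 26 distinct windows of the 20 HOX genes with an entry. HOXC4 and HOXC5 share 1 annotated start and 1 window. A match is a description of these letters, and absence of a match says nothing about a factor.

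The first question was which HOX genes the cells express without NXP800. In the DMSO libraries, 31 of the 39 HOX genes were at or above 1 CPM in every library and 10 were at or above 10 CPM. HOXB genes made up 45.7% of the summed HOX RPKM in the 6 h DMSO libraries and 50.4% in the 24 h libraries, HOXA genes 25.9% and 20.9%, HOXC genes 22.1% and 23.0%, and HOXD genes 6.30% and 5.70%. These shares describe RPKM on the exon-union length.

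Within HOXB the highest mean levels on exon-union length were those of HOXB2, a hindbrain patterning gene. It read 14.2 ± 0.935 RPKM (SD, n = 3) at 6 h and 19.4 ± 2.74 at 24 h. HOXB6 read 10.5 ± 0.563 RPKM at 6 h and 18.9 ± 2.41 RPKM at 24 h. HOXB7 read 11.7 ± 0.188 RPKM and 15.7 ± 0.501 RPKM, above HOXB6 at 6 h and below its mean at 24 h. With longest-transcript, MANE or coding length HOXB6 had the higher mean at 6 h too (coding length, 40.8 ± 2.18 against 27.4 ± 0.440 RPKM). The 24 h ranges of HOXB2 and HOXB6 overlapped, and the order of the pair depended on the length used. With coding length HOXB6 came first at 24 h (73.1 ± 9.35 RPKM, against 44.6 ± 6.29 for HOXB2) and at 6 h (40.8 ± 2.18 against 32.7 ± 2.15). With MANE length HOXB6 had the higher mean at 24 h (29.3 ± 3.75 against 28.3 ± 4.00 RPKM). HOXB4, a regulator of blood stem cell self-renewal, read 11.1 ± 1.39 RPKM at 24 h and HOXB9 read 9.60 ± 0.725, with overlapping libraries. HOXB3, HOXB5, HOXB8 and HOXB13 lay lower, from 3.06 ± 0.225 RPKM for HOXB13, known from prostate and tail development, to 4.24 ± 0.687 RPKM for HOXB5. HOXB1, which patterns the hindbrain, had 0 counts in all 12 libraries, which allows up to 0.0911 to 0.103 CPM per library for counting error only.

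Expression in HOXA was high at 3 genes of the middle and tail end. HOXA11, which patterns the forearm and lower leg, read 8.48 ± 0.292 RPKM at 24 h, HOXA10 read 7.22 ± 0.506 and HOXA7 6.59 ± 0.105. Their neighbours HOXA9 (3.59 ± 0.267 RPKM) and HOXA6 (1.57 ± 0.258 RPKM) were lower, and HOXA13, which patterns the hand and foot, was lowest of the cluster at 0.218 ± 0.0280 RPKM. HOXA2 to HOXA5 lay between 1.08 ± 0.134 RPKM (HOXA2) and 2.65 ± 0.0858 RPKM (HOXA5). Of the HOXA7 exon bases, 62.5% lie under an exon of another gene on either strand, so that counting may have lost or mixed reads there. In HOXC a single gene stood out: HOXC10, which patterns the lumbosacral region and hindlimb, read 11.9 ± 0.230 RPKM at 6 h and 16.6 ± 1.42 RPKM at 24 h, and the next, HOXC8, read 4.83 ± 0.277 RPKM at 24 h with no overlap between their libraries. With MANE or coding length HOXC6 came before HOXC8 at 24 h (8.20 ± 0.396 against 4.83 ± 0.277 RPKM, and 19.2 ± 0.928 against 16.1 ± 0.923 RPKM), and with the longest transcript HOXC4 did (5.88 ± 0.498 RPKM), while HOXC10 was first with each length. HOXC12 was lowest of this cluster with 0.943 ± 0.113 RPKM.

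HOXD was the weakest cluster. HOXD9 read 3.98 ± 0.196 RPKM at 24 h, HOXD13, the paralog of HOXA13, 2.29 ± 0.292, HOXD4 1.80 ± 0.251 and HOXD8 1.54 ± 0.0812. HOXD10, HOXD11 and HOXD12, which lie between the expressed genes HOXD9 and HOXD13, had 2 to 12, 0 to 14 and 3 to 14 counts per library over all 12 libraries. HOXD1 and HOXD3 passed the filter at no more than 0.446 CPM in any DMSO library. Along the chromosome, near-silent HOXD1 and HOXD3 were thus followed by the expressed genes HOXD4, HOXD8 and HOXD9, the near-silent HOXD10 to HOXD12 and the expressed HOXD13.

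**Figure D1:**
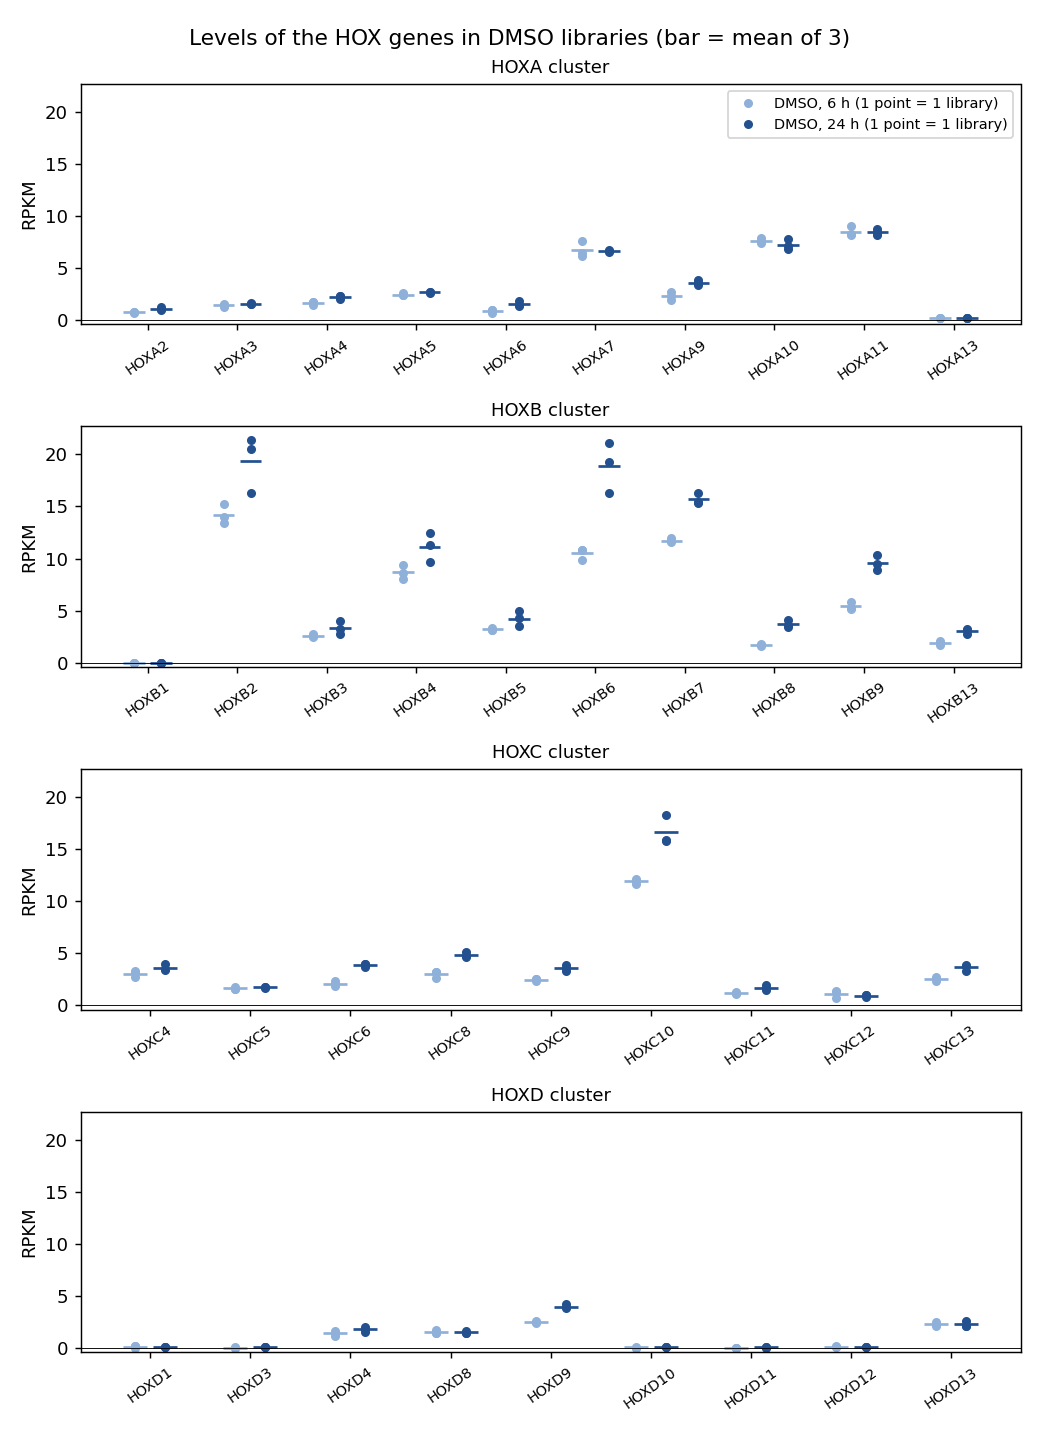
RPKM (exon-union length) of HOX genes in the 6 DMSO libraries, with 1 panel per cluster and genes in order of their number; light points are 6 h libraries, dark points 24 h libraries, and bars are means of 3. HOXB2, HOXB6, HOXB7 and HOXC10 stood highest at 24 h, and HOXB1, HOXD10, HOXD11 and HOXD12 lay at or near 0.

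DMSO libraries of the 2 times were also compared with each other. With edgeR's quasi-likelihood test and Benjamini-Hochberg adjustment over the 15979 genes tested, 18 HOX genes were higher at 24 h than at 6 h and 0 were lower (17 neither), beside 21.0% of all tested genes higher, 20.6% lower and 41.6% called either way. Thus 51.4% of the tested HOX genes were called higher. The median log2 difference was 0.42 over the HOX genes and -0.0035 over all genes. By cluster, 8 of 9 tested HOXB genes, 6 of 9 HOXC genes, 3 of 11 HOXA genes and 1 of 6 HOXD genes were higher. HOXB8 read 4.44, 4.00 and 3.95 CPM at 6 h and 8.26, 9.82 and 8.69 CPM at 24 h, with every 24 h library above every 6 h library (log2 fold change 1.11, SE 0.13, adjusted p = 1.1e-05). HOXC6 moved likewise from 6.37, 7.22 and 7.96 to 12.8, 13.9 and 13.9 CPM (log2 fold change 0.91, SE 0.11, adjusted p = 1.53e-05). HOXA10 did not pass the test, with 27.4, 28.3 and 29.1 CPM at 6 h and 25.1, 28.8 and 26.4 CPM at 24 h (log2 fold change -0.08, SE 0.12, adjusted p = 0.625). Scaling by library size alone moved the median of all genes by -0.15 and left 14 HOX genes higher and 0 lower. Hours in culture and library set cannot be told apart here, and the NXP800 comparisons were therefore made within each time.

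NXP800 was then compared with DMSO at each time. At 6 h, 23 of the 35 tested HOX genes were lower with NXP800 and 4 were higher, leaving 8 that did not pass the test. Thus 65.7% of the tested HOX genes fell and 11.4% rose, beside 27.8% of all 15979 tested genes that fell, 25.0% that rose and 52.8% called either way. The median log2 fold change was -0.76 over the HOX genes and -0.05 over all genes. At 24 h, 11 HOX genes were lower, 6 were higher and 18 did not pass the test, or 31.4% and 17.1% of those tested, beside 28.6% of all genes lower, 27.5% higher and 56.0% called either way. These 24 h shares were near or below those of all genes, and the median over the HOX genes was -0.12 (all genes -0.0033). Without TMM, on library size alone, the 24 h split was 7 higher and 6 lower, with the median of all genes moved by 0.089. The 11 lower calls at 24 h were 6, 5, 6 and 5 without DMSO replicate 2, DMSO replicate 3, NXP800 replicate 1 or NXP800 replicate 2 of the 24 h groups, and 5 to 13 over all libraries left out in turn. In bulk RNA, fewer cells that express a gene and less RNA per cell cannot be told apart.

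Calls were then counted by cluster and by position, and differences between these sets were not tested. At 6 h, 9 of 11 HOXA genes fell and 0 rose, 7 of 9 tested HOXB genes fell and 2 rose (HOXB2 and HOXB9), 7 of 9 HOXC genes fell and 0 rose, and 2 of 6 tested HOXD genes rose (HOXD8 and HOXD9) and 0 fell. At 24 h, 7 HOXB genes were again lower and 1 was higher, whereas 2 HOXA genes and 2 HOXC genes were lower, 1 HOXA gene was higher and 4 HOXD genes were higher. Among all tested genes, 27.8% were lower and 25.0% higher at 6 h, and 28.6% and 27.5% at 24 h. The called shares of HOXA (27.3%) and HOXC (22.2%) at 24 h lay below the 56.0% of all tested genes. By position, 12 of 15 tested genes of numbers 4 to 8 fell at 6 h, as did 8 of 13 of numbers 9 to 13 and 3 of 7 of numbers 1 to 3. Both directions occurred in each of these classes: HOXB2, HOXD8, HOXB9 and HOXD9 were the 4 that rose at 6 h.

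Summed over the genes of a cluster, HOXA read 92.4 to 97.6 CPM in the 6 h DMSO libraries and 52.8 to 68.0 CPM in the NXP800 libraries, a ratio of means of 0.627. HOXC moved from 68.5 to 74.3 CPM to 38.8 to 49.1 CPM, a ratio of 0.615. Both clusters lay lower in every NXP800 library. HOXB sums overlapped at 6 h (143 to 150 CPM with DMSO, 134 to 146 CPM with NXP800, ratio 0.942), with 7 of its genes lower and HOXB9 and HOXB2 higher. HOXD sums went the other way at both times. At 6 h they read 16.8 to 17.6 CPM with DMSO and 17.7 to 19.4 CPM with NXP800, a narrow gap with a ratio of 1.09. At 24 h they read 19.4 to 21.6 CPM with DMSO and 31.7 to 36.0 CPM with NXP800, a ratio of 1.66. At 24 h the HOXA, HOXB and HOXC sums overlapped between DMSO and NXP800, with ratios of 0.993, 1.01 and 0.951. These sums are descriptions of the members and were not tested.

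**Figure D2:**
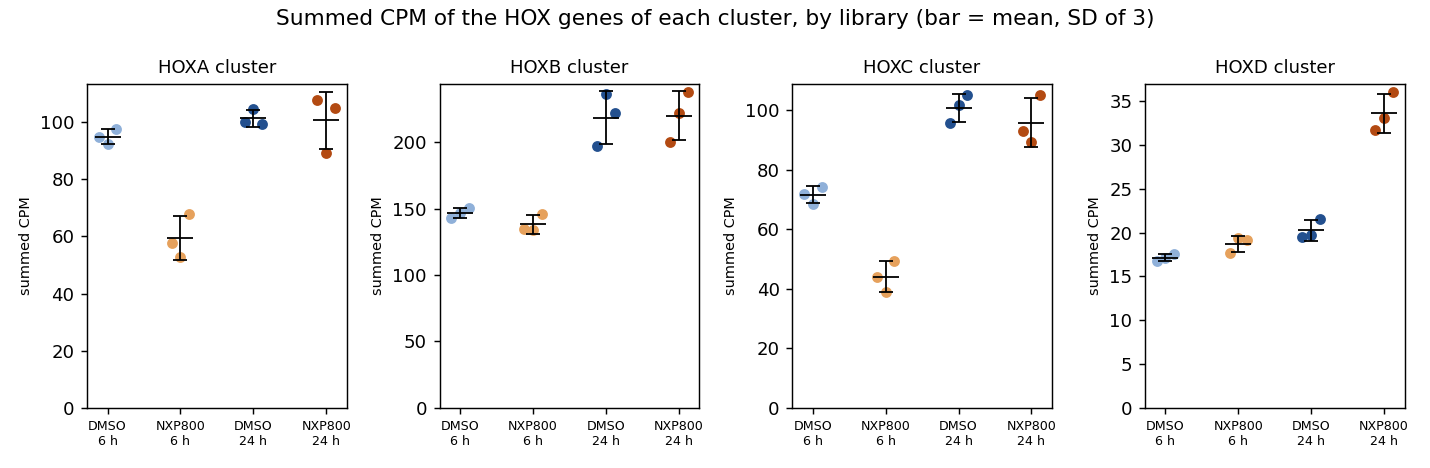
Summed CPM of the HOX genes of each cluster in each of the 12 libraries, with 1 panel per cluster; points are libraries, and bars give the mean and SD of 3. HOXA and HOXC sums were lower with NXP800 at 6 h and overlapped with DMSO at 24 h, whereas the HOXD sum was higher with NXP800 at 24 h and, narrowly, at 6 h.

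**Figure D3:**
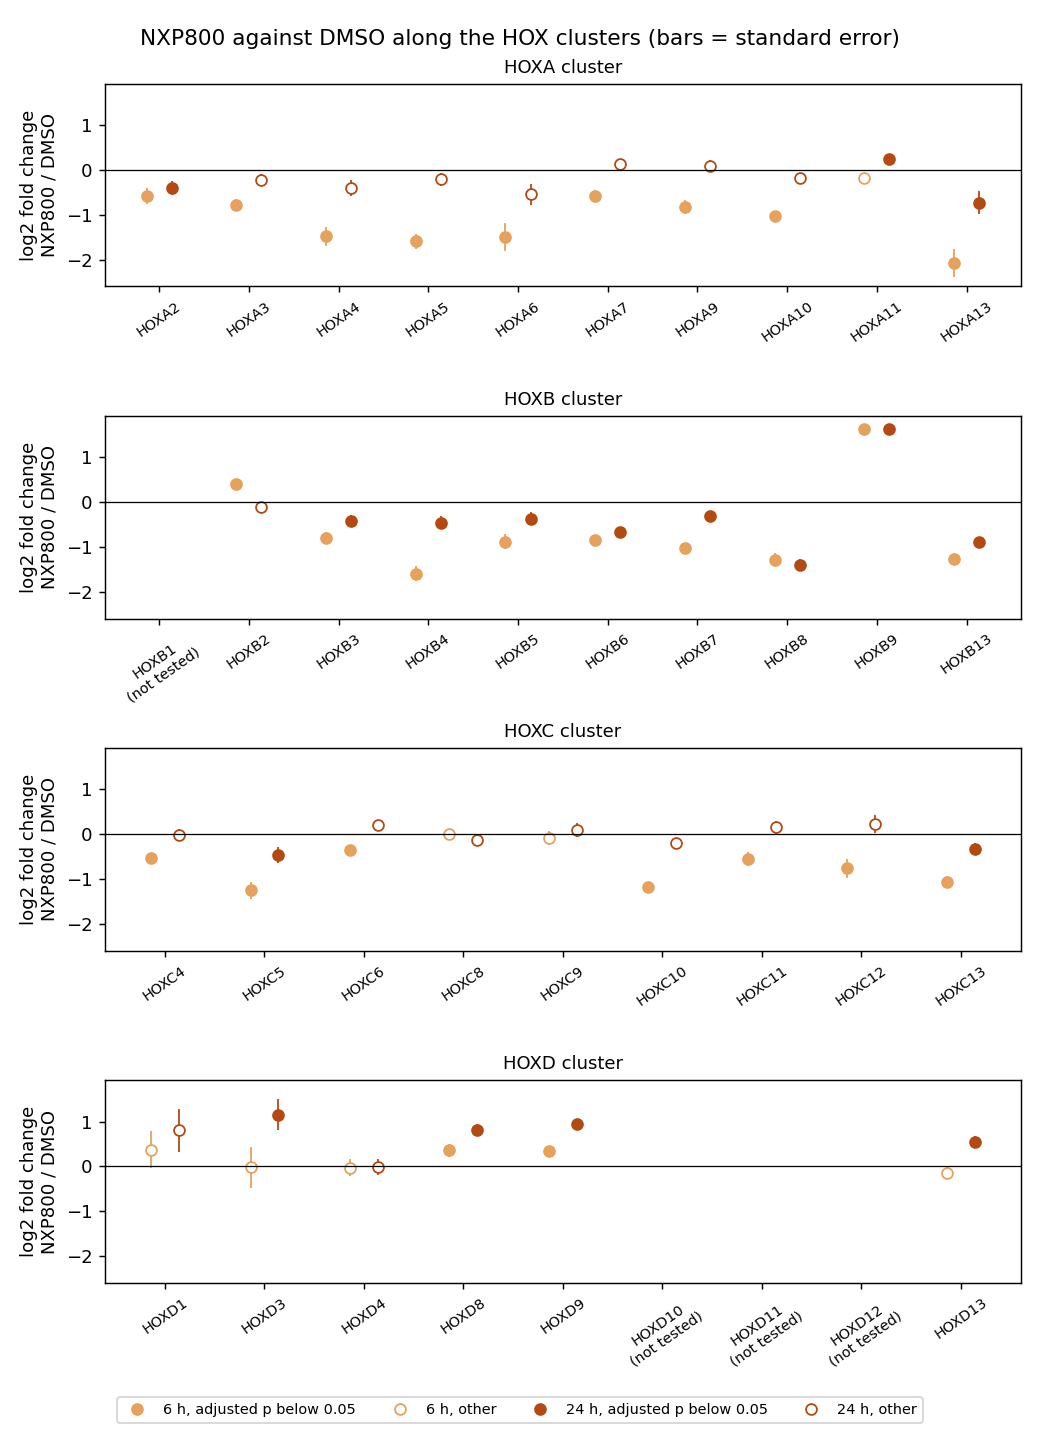
Log2 fold change of NXP800 against DMSO, with its standard error, for HOX genes in order along its cluster, at 6 h (light) and 24 h (dark); filled points passed an adjusted p of 0.05. Most HOXA, HOXB and HOXC genes lay below 0 at 6 h, HOXB9 lay at 1.63 at both times, and called HOXD genes lay above 0.

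HOXB9, a posterior gene known from thoracic patterning, gave the largest rise of any HOX gene at both times. It read 15.1, 13.3 and 13.7 CPM in the DMSO libraries and 46.8, 41.4 and 42.5 CPM in the NXP800 libraries at 6 h. At 24 h it read 26.8, 23.1 and 24.6 CPM with DMSO and 70.5, 77.1 and 83.3 CPM with NXP800. Every NXP800 library was above every DMSO library at both times. The fold changes were 3.10-fold at 6 h (log2 fold change 1.63, SE 0.087, adjusted p = 5.55e-10) and 3.10-fold at 24 h (log2 fold change 1.63, SE 0.084, adjusted p = 2.69e-10), and they did not differ detectably between the times (log2 difference 0.0010, SE 0.13, adjusted p = 0.998). No exon of HOXB9 overlaps an exon of another annotated gene.

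The genes on either side of HOXB9 moved the opposite way. HOXB8, which lies next to it and is known from myeloid progenitors, read 4.44, 4.00 and 3.95 CPM in the DMSO libraries and 1.72, 1.68 and 1.69 CPM in the NXP800 libraries at 6 h. HOXB8 at 24 h read 8.26, 9.82 and 8.69 CPM with DMSO and 2.77, 3.83 and 3.57 CPM with NXP800. It fell at both times with no overlap (6 h, log2 fold change -1.28, SE 0.15, adjusted p = 3.17e-06; 24 h, log2 fold change -1.39, SE 0.13, adjusted p = 2.74e-07). HOXB13, the last gene of the cluster, read 6.24, 5.90 and 5.26 CPM in the DMSO libraries and 2.36, 2.66 and 2.21 CPM in the NXP800 libraries at 6 h. HOXB13 at 24 h read 9.80, 9.55 and 8.51 CPM with DMSO and 5.22, 4.39 and 5.39 CPM with NXP800. It also fell at both times without overlap (6 h, log2 fold change -1.26, SE 0.14, adjusted p = 1.11e-06; 24 h, log2 fold change -0.89, SE 0.12, adjusted p = 1.33e-05). A 3.10-fold rise of HOXB9 thus stood between falls of 2.43-fold in HOXB8 and 2.40-fold in HOXB13 at 6 h. HOXB8 and HOXB13 share no exon bases with other annotated genes.

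The other highly expressed HOXB genes split as well. HOXB4 read 16.2, 18.7 and 17.3 CPM in the DMSO libraries and 4.94, 5.35 and 6.94 CPM in the NXP800 libraries at 6 h, a fall in every library (log2 fold change -1.60, SE 0.16, adjusted p = 5.64e-07). HOXB4 at 24 h read 19.3, 22.5 and 24.9 CPM with DMSO and 13.7, 14.2 and 20.5 CPM with NXP800, and there the groups overlapped although the gene was called lower (log2 fold change -0.46, SE 0.15, adjusted p = 0.0139); leaving out DMSO replicate 3, NXP800 replicate 1 or NXP800 replicate 2 ended that call (adjusted p = 0.0662, 0.0702 and 0.0821). HOXB6 read 25.7, 28.3 and 28.3 CPM in the DMSO libraries and 13.05, 14.5 and 17.9 CPM in the NXP800 libraries at 6 h (log2 fold change -0.86, SE 0.12, adjusted p = 2.04e-05). HOXB6 at 24 h read 42.4, 54.9 and 50.1 CPM with DMSO and 27.9, 29.4 and 35.2 CPM with NXP800, lower in every NXP800 library (log2 fold change -0.67, SE 0.12, adjusted p = 0.000119). HOXB7 showed the same order, with 17.7, 17.6 and 18.1 CPM in the DMSO libraries and 8.90, 8.05 and 9.52 CPM in the NXP800 libraries at 6 h (log2 fold change -1.01, SE 0.084, adjusted p = 6.46e-08). HOXB7 at 24 h read 23.5, 24.7 and 23.3 CPM with DMSO and 19.2, 18.5 and 20.04 CPM with NXP800, a smaller fall (log2 fold change -0.31, SE 0.079, adjusted p = 0.00331). The 2 HOXB6 responses gave a difference that did not pass the test (log2 difference 0.18, SE 0.17, adjusted p = 0.456), and the HOXB7 fall was smaller at 24 h than at 6 h (log2 difference 0.70, SE 0.12, adjusted p = 0.000341). Of the HOXB6 exon bases, 32.95% lie under an exon of another gene on either strand.

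HOXB2 was the HOX gene with the second rise in this cluster. It read 33.01, 34.2 and 37.5 CPM in the DMSO libraries and 43.7, 46.05 and 49.7 CPM in the NXP800 libraries at 6 h, above DMSO in every library (log2 fold change 0.41, SE 0.098, adjusted p = 0.00219). HOXB2 at 24 h read 39.98, 52.6 and 50.4 CPM with DMSO and 40.3, 48.3 and 43.3 CPM with NXP800, and the groups overlapped (log2 fold change -0.12, SE 0.098, adjusted p = 0.332, or adjusted p = 0.0413 without DMSO replicate 1). It was the only HOX gene whose response was lower at 24 h than at 6 h by the test of the difference (log2 difference -0.53, SE 0.14, adjusted p = 0.0107). HOXB3 read 18.8, 18.1 and 20.6 CPM with DMSO and 10.1, 10.6 and 12.3 CPM with NXP800 at 6 h, against 20.3, 29.7 and 24.00 CPM and 15.7, 20.8 and 18.7 CPM at 24 h. It fell at both times, with overlap at 24 h (-0.80 and -0.42 on the log2 scale), and the 24 h call was lost without DMSO replicate 2 or NXP800 replicate 1 (adjusted p = 0.083 and 0.0585). HOXB5 read 5.92, 6.27 and 5.77 CPM with DMSO and 3.01, 3.33 and 3.41 CPM with NXP800 at 6 h, against 6.59, 9.15 and 7.90 CPM and 5.18, 5.58 and 7.53 CPM at 24 h. HOXB5 was lower at 6 h without overlap (-0.88), and its 24 h call (-0.37, adjusted p = 0.0445) was lost when any of 10 libraries was left out.

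**Figure D4:**
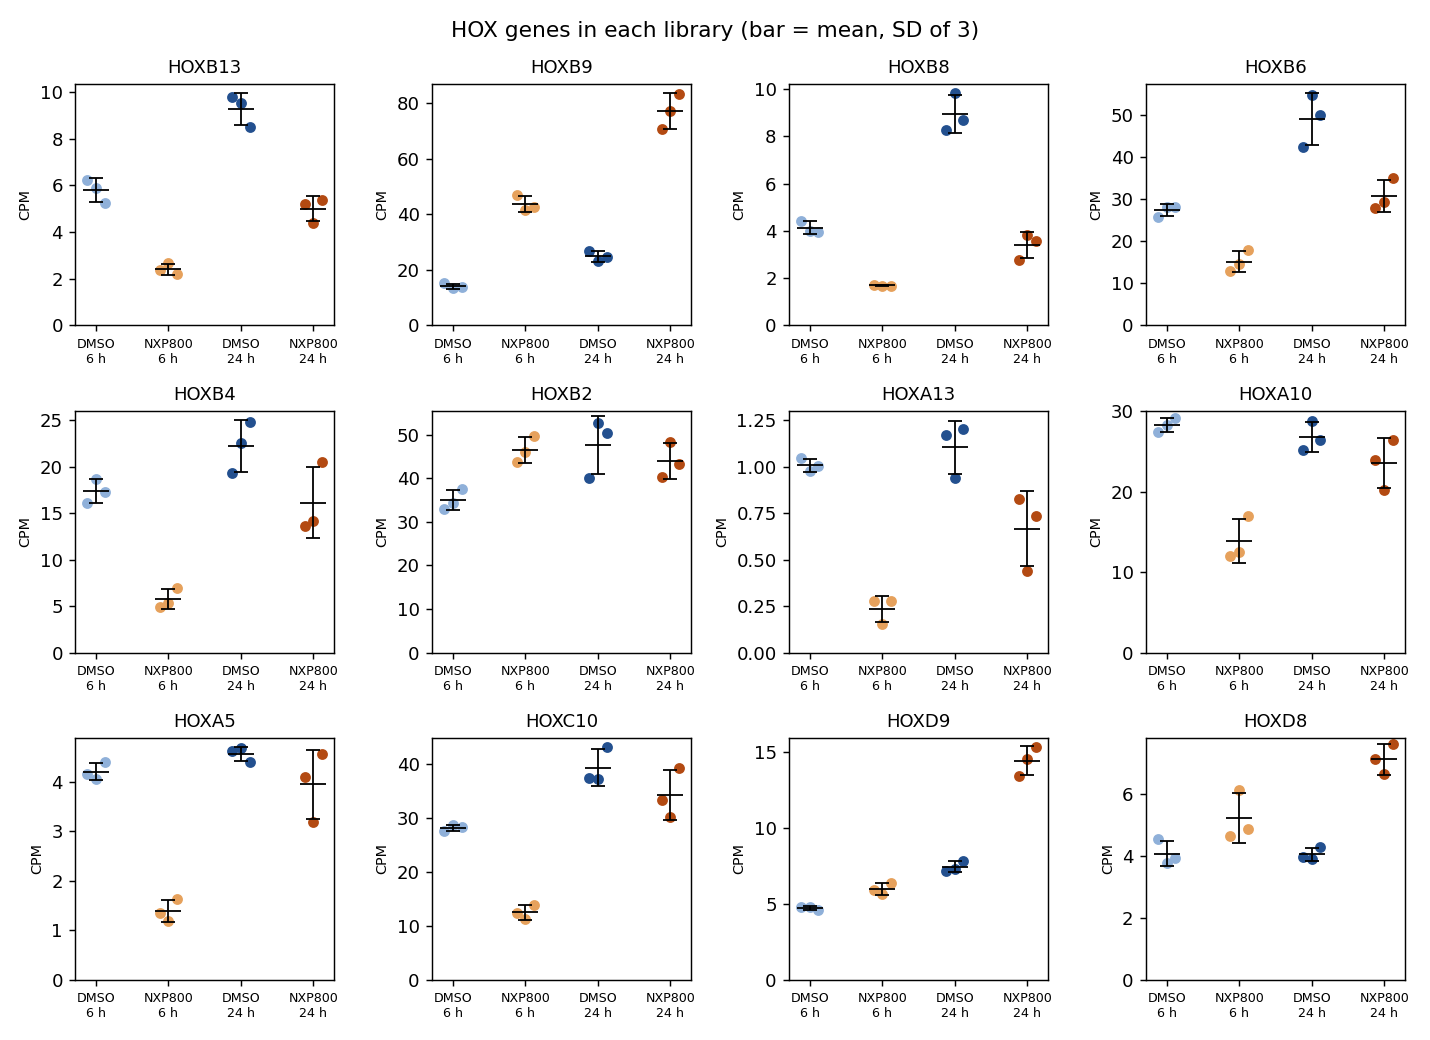
CPM of 12 HOX genes in each of the 12 libraries, with the mean and SD of 3 per group. HOXB9 rose at both times between neighbours HOXB8 and HOXB13 that fell, HOXA5, HOXA10 and HOXC10 fell at 6 h and overlapped with DMSO at 24 h, and HOXD8 and HOXD9 rose at both times.

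In the HOXA cluster, HOXA13 had the largest fall of any HOX gene at 6 h, from a low level. It read 1.05, 0.977 and 1.00 CPM in the DMSO libraries and 0.276, 0.153 and 0.276 CPM in the NXP800 libraries. Every NXP800 library was lower, by 4.23-fold (log2 fold change -2.08, SE 0.31, adjusted p = 3.51e-05). HOXA13 at 24 h read 1.17, 0.942 and 1.20 CPM with DMSO and 0.825, 0.439 and 0.734 CPM with NXP800, again with no overlap (log2 fold change -0.73, SE 0.26, adjusted p = 0.0261), but the 24 h call was lost without DMSO replicate 1, DMSO replicate 3 or NXP800 replicate 2 (adjusted p = 0.0704, 0.0792 and 0.145).

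HOXA5, which is known from lung development, read 4.15, 4.07 and 4.41 CPM in the DMSO libraries and 1.35, 1.19 and 1.63 CPM in the NXP800 libraries at 6 h, a 3.02-fold fall with no overlap (log2 fold change -1.59, SE 0.17, adjusted p = 8.62e-07). HOXA5 at 24 h read 4.62, 4.67 and 4.39 CPM with DMSO and 4.09, 3.20 and 4.56 CPM with NXP800, overlapping and not called (log2 fold change -0.21, SE 0.15, adjusted p = 0.25). HOXA4 read 2.91, 3.00 and 2.43 CPM in the DMSO libraries and 1.26, 0.734 and 0.983 CPM in the NXP800 libraries at 6 h (log2 fold change -1.48, SE 0.20, adjusted p = 1.45e-05). HOXA4 at 24 h read 3.41, 3.93 and 3.91 CPM with DMSO and 2.44, 2.73 and 3.29 CPM with NXP800, lower in every library but with an adjusted p of 0.0579; with replicate number as a block within each time it was called (adjusted p = 0.0191), as it was without NXP800 replicate 3 (0.0295). HOXA6 read 1.24, 0.851 and 1.22 CPM with DMSO and 0.276, 0.367 and 0.522 CPM with NXP800 at 6 h, against 1.91, 2.39 and 1.75 CPM and 1.39, 1.00 and 1.75 CPM at 24 h. It fell at 6 h (log2 fold change -1.49, SE 0.31, adjusted p = 0.000684) and overlapped at 24 h (-0.54, adjusted p = 0.0661, and 0.0386 with the block or 0.0258 without NXP800 replicate 3). HOXA4, HOXA5 and HOXA6 are adjacent and had the 3 largest HOXA falls after HOXA13. Of their exon bases, 47.8%, 0 and 40.1% lie under an exon of another gene on either strand.

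HOXA10 was among the highest of the cluster in DMSO and read 27.4, 28.3 and 29.1 CPM in the DMSO libraries and 12.04, 12.5 and 16.9 CPM in the NXP800 libraries at 6 h, a 2.04-fold fall with no overlap (log2 fold change -1.03, SE 0.12, adjusted p = 2.89e-06). HOXA10 at 24 h read 25.1, 28.8 and 26.4 CPM with DMSO and 23.9, 20.2 and 26.5 CPM with NXP800, overlapping (log2 fold change -0.19, SE 0.12, adjusted p = 0.188). Its neighbour HOXA11, of similar RPKM, read 21.7, 22.2 and 24.2 CPM in the DMSO libraries and 20.6, 17.3 and 22.5 CPM in the NXP800 libraries at 6 h, and the groups overlapped (log2 fold change -0.17, SE 0.098, adjusted p = 0.153). HOXA11 at 24 h read 21.8, 23.4 and 22.7 CPM with DMSO and 29.7, 24.7 and 26.5 CPM with NXP800, higher with NXP800 in every library (log2 fold change 0.25, SE 0.097, adjusted p = 0.0364). That rise was lost when any of 5 libraries of the 24 h groups was left out (adjusted p from 0.0529 to 0.163). HOXA10 and HOXA11 thus differed at 6 h in whether they passed the test, and the difference between these neighbours was not tested. Of their exon bases, 26.3% and 27.2% lie under an exon of another gene on either strand.

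Other HOXA genes had smaller changes. HOXA3, known from the thymus and parathyroid, read 6.56, 5.30 and 6.20 CPM with DMSO and 2.86, 3.73 and 3.90 CPM with NXP800 at 6 h, against 6.76, 7.16 and 6.56 CPM and 5.42, 5.74 and 6.32 CPM at 24 h. HOXA7 read 18.4, 15.5 and 14.8 CPM with DMSO and 11.2, 9.09 and 12.5 CPM with NXP800 at 6 h, against 16.2, 15.9 and 15.7 CPM and 18.7, 15.2 and 18.5 CPM at 24 h. HOXA9, known from blood progenitors and leukaemia, read 5.83, 7.09 and 8.11 CPM with DMSO and 3.44, 3.82 and 4.61 CPM with NXP800 at 6 h, against 11.7, 10.9 and 10.1 CPM and 13.7, 10.3 and 10.6 CPM at 24 h. These 3 genes fell at 6 h with no overlap (-0.78, -0.57 and -0.83 on the log2 scale) and were not called at 24 h. HOXA2, which patterns the hindbrain and pharyngeal arches, read 1.81, 1.83 and 1.55 CPM with DMSO and 1.14, 1.13 and 1.17 CPM with NXP800 at 6 h, against 2.24, 2.86 and 2.47 CPM and 1.95, 1.76 and 2.01 CPM at 24 h. HOXA2 was lower at both times without overlap (-0.59 and -0.41), but its 24 h adjusted p of 0.0449 was lost when any of 10 libraries was left out and was 0.0534 with a replicate block over both times.

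In the HOXC cluster, HOXC10 had the most marked change of a highly expressed gene. It read 27.7, 28.7 and 28.4 CPM in the DMSO libraries and 12.3, 11.2 and 13.97 CPM in the NXP800 libraries at 6 h, a 2.26-fold fall with a clear gap between the groups (log2 fold change -1.18, SE 0.10, adjusted p = 1.42e-07). HOXC10 at 24 h read 37.5, 37.4 and 43.3 CPM with DMSO and 33.4, 30.3 and 39.3 CPM with NXP800, and the groups overlapped (log2 fold change -0.20, SE 0.098, adjusted p = 0.0956; adjusted p = 0.0103 with the block within each time and 0.0131 without NXP800 replicate 3). HOXC13, known from hair and nail, read 6.37, 5.96 and 5.47 CPM in the DMSO libraries and 2.76, 2.57 and 3.13 CPM in the NXP800 libraries at 6 h (log2 fold change -1.07, SE 0.14, adjusted p = 8.15e-06). HOXC13 at 24 h read 7.69, 8.94 and 9.24 CPM with DMSO and 6.93, 6.02 and 7.79 CPM with NXP800, overlapping and called lower (log2 fold change -0.32, SE 0.13, adjusted p = 0.0406), a call lost without any of 4 libraries (adjusted p from 0.0744 to 0.212). HOXC5 read 2.60, 2.52 and 2.92 CPM with DMSO and 1.23, 1.04 and 1.11 CPM with NXP800 at 6 h, against 2.71, 2.86 and 2.82 CPM and 2.44, 1.47 and 2.14 CPM at 24 h. It was lower at both times without overlap (6 h, log2 fold change -1.25, SE 0.19, adjusted p = 4.84e-05; 24 h, log2 fold change -0.47, SE 0.18, adjusted p = 0.036), and the 24 h call was lost without any of 4 libraries (adjusted p from 0.0575 to 0.221). Of the HOXC5 exon bases, 67.3% are shared with another gene on the same strand, so that its counts rest on what remains.

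HOXC4 and HOXC6 share their annotated start with HOXC5. HOXC4 read 8.90, 7.47 and 9.02 CPM with DMSO and 5.19, 5.42 and 6.94 CPM with NXP800 at 6 h, against 9.57, 11.03 and 9.54 CPM and 9.91, 9.94 and 10.1 CPM at 24 h. HOXC6 read 6.37, 7.22 and 7.96 CPM with DMSO and 5.62, 5.20 and 6.11 CPM with NXP800 at 6 h, against 12.8, 13.9 and 13.9 CPM and 13.8, 15.8 and 17.2 CPM at 24 h. Both fell at 6 h without overlap (-0.53 and -0.35 on the log2 scale), the latter only while DMSO replicate 3, NXP800 replicate 1 and NXP800 replicate 2 were kept (adjusted p = 0.102, 0.0534 and 0.0867 without each). HOXC6 at 24 h was not called (log2 fold change 0.20, adjusted p = 0.118), except with the block within each time (adjusted p = 0.0323), on library size alone (0.0398), with the block and GC and length offsets (0.0164) and without NXP800 replicate 1 (0.0435). HOXC11 read 3.58, 3.78 and 4.34 CPM with DMSO and 2.73, 2.17 and 3.13 CPM with NXP800 at 6 h, against 4.92, 6.39 and 5.42 CPM and 5.84, 6.40 and 6.38 CPM at 24 h. HOXC12 read 4.40, 2.46 and 4.28 CPM with DMSO and 2.55, 1.84 and 2.18 CPM with NXP800 at 6 h, against 2.68, 3.16 and 3.40 CPM and 3.30, 4.08 and 3.45 CPM at 24 h. HOXC11 and HOXC12 were called lower at 6 h (-0.54 and -0.76), with overlapping groups for HOXC12, and neither was called at 24 h; the HOXC11 call had an adjusted p of 0.0502 without NXP800 replicate 2.

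HOXC8 and HOXC9 gave no call at either time. HOXC8, known from thoracic patterning, read 7.70, 6.43 and 7.72 CPM with DMSO and 7.77, 5.81 and 8.26 CPM with NXP800 at 6 h, against 11.2, 12.4 and 11.4 CPM and 10.5, 10.5 and 11.2 CPM at 24 h. HOXC9, its neighbour, read 4.21, 3.94 and 4.19 CPM with DMSO and 3.81, 3.55 and 4.30 CPM with NXP800 at 6 h, against 6.49, 5.55 and 5.94 CPM and 6.97, 4.67 and 7.53 CPM at 24 h. The groups overlapped at both times for both genes. At 6 h the HOXC8 log2 fold change was -0.0008 with an SE of 0.13 and that of HOXC9 was -0.08 with an SE of 0.16, while the next gene towards the tail end, HOXC10, fell by 1.18 with an SE of 0.10.

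The HOXD cluster held no gene called lower at either time. HOXD9 read 4.78, 4.79 and 4.59 CPM in the DMSO libraries and 5.90, 5.63 and 6.39 CPM in the NXP800 libraries at 6 h, above DMSO in every library (log2 fold change 0.34, SE 0.11, adjusted p = 0.0129), a call lost without NXP800 replicate 3 (adjusted p = 0.0578) or without the filter on low counts (0.0502). HOXD9 at 24 h read 7.16, 7.33 and 7.86 CPM with DMSO and 13.4, 14.5 and 15.3 CPM with NXP800, a 1.94-fold rise with no overlap (log2 fold change 0.96, SE 0.098, adjusted p = 5.44e-07). The rise was larger at 24 h than at 6 h (log2 difference 0.62, SE 0.14, adjusted p = 0.00514). No exon of HOXD9 overlaps an exon of another annotated gene.

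HOXD8, whose promoter is printed above, read 4.53, 3.75 and 3.92 CPM in the DMSO libraries and 4.64, 6.12 and 4.85 CPM in the NXP800 libraries at 6 h. It was higher with NXP800 in every library, by a narrow margin (log2 fold change 0.36, SE 0.14, adjusted p = 0.0363), and the call was lost without DMSO replicate 2, DMSO replicate 3 or NXP800 replicate 2 (adjusted p = 0.124, 0.0945 and 0.209), and without the filter on low counts (0.0644). HOXD8 at 24 h read 3.95, 3.90 and 4.29 CPM with DMSO and 7.10, 6.62 and 7.59 CPM with NXP800, a 1.75-fold rise with no overlap (log2 fold change 0.81, SE 0.13, adjusted p = 8.04e-05). Of the HOXD8 exon bases, 24.4% lie under an exon of another gene on the opposite strand. HOXD13 read 5.16, 5.71 and 6.08 CPM in the DMSO libraries and 5.00, 5.23 and 5.10 CPM in the NXP800 libraries at 6 h, overlapping (log2 fold change -0.14, SE 0.13, adjusted p = 0.359). HOXD13 at 24 h read 5.12, 5.14 and 6.35 CPM with DMSO and 7.13, 8.18 and 8.90 CPM with NXP800, higher in every NXP800 library (log2 fold change 0.54, SE 0.12, adjusted p = 0.00145). Its paralog HOXA13 was lower at 24 h, as given above, so that the pair carried opposite signs at that time.

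HOXD3 lay under 1 CPM throughout. HOXD3 read 0.222, 0.315 and 0.152 CPM with DMSO and 0.154, 0.153 and 0.368 CPM with NXP800 at 6 h, against 0.301, 0.404 and 0.446 CPM and 0.991, 0.627 and 0.957 CPM at 24 h. It overlapped at 6 h and was higher with NXP800 in every library at 24 h (log2 fold change 1.15, SE 0.34, adjusted p = 0.00868). HOXD4 read 1.30, 1.92 and 1.64 CPM with DMSO and 1.44, 1.65 and 1.66 CPM with NXP800 at 6 h, against 2.07, 2.32 and 1.75 CPM and 2.08, 1.98 and 2.04 CPM at 24 h. HOXD1 read 0.349, 0.0946 and 0.334 CPM with DMSO and 0.246, 0.398 and 0.368 CPM with NXP800 at 6 h, against 0.201, 0.135 and 0.137 CPM and 0.264, 0.314 and 0.255 CPM at 24 h. Neither HOXD4 nor HOXD1 was called at either time (HOXD4 -0.03 and -0.01, HOXD1 0.37 and 0.80 on the log2 scale). Every NXP800 library of HOXD1 was above every DMSO library at 24 h, but with an SE of 0.48 no change was detectable at this depth. HOXD4 was close to 0 with an SE of 0.19 at 6 h and of 0.18 at 24 h. Of the HOXD1 exon bases, 60.1% lie under an exon of another gene on either strand.

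Whether a response differed between the times was tested as the difference of the 24 h and the 6 h log2 fold changes in the same model. For 19 of the 35 tested HOX genes it was above 0, for 1 it was below 0 and for 15 it did not pass the test. This was 54.3% and 2.86% of the tested HOX genes, beside 12% of all tested genes above 0, 13.8% below 0 and 25.8% called either way. The median difference was 0.55 over the HOX genes and -0.0021 over all genes. HOXA gave 8 of these 19 genes, HOXC 7, HOXB 2 and HOXD 2. HOXA5 had the largest difference (log2 difference 1.39, SE 0.22, adjusted p = 0.00032), followed by HOXA13 (log2 difference 1.35, SE 0.42, adjusted p = 0.0253), HOXB4 (log2 difference 1.13, SE 0.22, adjusted p = 0.00131) and HOXA4 (log2 difference 1.07, SE 0.27, adjusted p = 0.00832). HOXC10 differed by 0.98 (SE 0.14, adjusted p = 0.000131). Of the 23 genes lower at 6 h, 11 were also lower at 24 h, 12 were not called and 0 were higher. The 11 were HOXA2, HOXA13, HOXB3 to HOXB8, HOXB13, HOXC5 and HOXC13. Of the 12, HOXA4, HOXA6 and HOXC10 were called lower at 24 h with the block within each time (adjusted p = 0.0191, 0.0386 and 0.0103). The matching shares among all tested genes lower at 6 h were not computed. The differences of HOXA3, HOXA11, HOXA13, HOXC4, HOXC5, HOXC6, HOXC11 and HOXC12 were lost when 1 or another library was left out. Leaving out DMSO replicate 3 or NXP800 replicate 2 of the 6 h groups left 13 genes with a called difference in place of 20. The 24 h count of 17 called genes fell to 11, 10 and 11 without DMSO replicate 2, DMSO replicate 3 or NXP800 replicate 2 of the 24 h groups. The 24 h calls of HOXA2, HOXA13, HOXB3, HOXB5, HOXC5 and HOXC13 were also lost under at least 1 other normalization, filter or test.

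Noncoding transcripts of the clusters were read as a list of 19, of which 15 were tested. At 6 h, 6 were lower and 0 higher, with a median log2 fold change of -0.35, beside 27.8% of all tested genes lower and 25.0% higher. At 24 h, 3 were lower and 2 higher, smaller shares of the 15 than the 28.6% and 27.5% of all tested genes. The 3 largest falls at 6 h were those of HOXA-AS2 (log2 fold change -1.32, SE 0.32, adjusted p = 0.00236), HOXA11-AS (log2 fold change -1.06, SE 0.20, adjusted p = 0.000343) and HOXC-AS3 (log2 fold change -1.04, SE 0.32, adjusted p = 0.0115). Levels were low for HOXA-AS2 (means 0.773 CPM with DMSO and 0.307 CPM with NXP800 at 6 h) and HOXC-AS3 (0.737 and 0.358 CPM). HOXA10-AS, which lies antisense at HOXA10, read 8.43, 7.72 and 6.02 CPM with DMSO and 4.27, 3.70 and 3.62 CPM with NXP800 at 6 h, without overlap (log2 fold change -0.93, SE 0.13, adjusted p = 2.45e-05). HOTAIR, HOTTIP and HAGLROS are named after their values were seen. HOTAIR, a well-known noncoding RNA of the HOXC cluster, was lower at 6 h (log2 fold change -0.71, SE 0.26, adjusted p = 0.0316) and not at 24 h (0.20, adjusted p = 0.554). In HOXD the noncoding transcripts HAGLR and HOXD-AS2 were the 2 that rose at 24 h (log2 fold change 1.00, SE 0.23, adjusted p = 0.00133 for HAGLR and log2 fold change 0.68, SE 0.13, adjusted p = 0.000341 for HOXD-AS2). HAGLROS, also of HOXD, was not called at 24 h (-0.03, adjusted p = 0.925) and was lower at 6 h (-0.805, adjusted p = 0.004975). HOTTIP, at the tail end of HOXA, had at most 0.0673 CPM in any library. The library kit was strand-specific, but the sources used here do not give the strand setting of the counting, and sense and antisense reads cannot be told apart if it was unstranded.

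The TALE partners of HOX proteins were a list of 9 genes, 8 of them tested. At 6 h, 4 fell and 1 rose, and at 24 h, 6 fell and 1 rose, with medians of -0.23 and -0.43, beside 52.8% and 56.0% of all tested genes called either way. MEIS1 fell at both times (6 h, log2 fold change -0.77, SE 0.13, adjusted p = 0.000146; 24 h, log2 fold change -0.82, SE 0.13, adjusted p = 6.83e-05). PBX2 fell by less (6 h log2 fold change -0.27, adjusted p = 0.0208; 24 h -0.35, adjusted p = 0.00375). PBX4 was lower at 24 h only by the test (-0.78, adjusted p = 0.0258). MEIS2 rose at 6 h (0.28, adjusted p = 0.00742) and fell at 24 h (-0.26, adjusted p = 0.0106). MEIS3, under 1 CPM, rose at 24 h (1.09, adjusted p = 0.0347).

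Of 27 Polycomb genes, all tested, 11 rose and 6 fell at 6 h, and 8 rose and 8 fell at 24 h, with medians of 0.061 and -0.072. Among all tested genes the shares were 25.0% higher and 27.8% lower at 6 h, and 27.5% and 28.6% at 24 h, so that the 24 h Polycomb calls were near the background. JARID2, a DNA-binding partner of the Polycomb methyltransferase, rose at both times (log2 fold change 1.62, SE 0.14, adjusted p = 1.2e-07 at 6 h and log2 fold change 0.99, SE 0.14, adjusted p = 2.32e-05 at 24 h). PCGF5 and PCGF1 followed among the rises at 6 h (0.66 and 0.65), and BMI1, near 1 CPM, rose at 24 h (1.14). PCGF5 was also higher at 24 h (0.63, adjusted p = 1.75e-06), whereas PCGF1 was lower there (-0.39, adjusted p = 0.00896). CBX2, a reader of the Polycomb mark, fell from 28.1, 31.2 and 31.99 CPM to 9.21, 10.4 and 14.1 CPM at 6 h (log2 fold change -1.44, SE 0.13, adjusted p = 1.51e-07) and by less at 24 h (-0.42, adjusted p = 0.00695). CBX8 and the histone-binding subunit RBBP4 had the next largest falls at 6 h (-0.90 and -0.81), and PHF19, RBBP7 and RBBP4 the largest at 24 h (-0.88, -0.45 and -0.42).

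Of 18 MLL and Trithorax genes, all tested, 4 rose and 4 fell at 6 h, and 2 rose and 7 fell at 24 h, with medians of 0.017 and -0.048. The members called, 8 at 6 h and 9 at 24 h, were a smaller share of the list than the 52.8% and 56.0% of all tested genes. KDM6B, a demethylase that removes the Polycomb mark, read 20.3, 15.7 and 21.5 CPM with DMSO and 158, 131 and 115 CPM with NXP800 at 6 h (log2 fold change 2.81, SE 0.14, adjusted p = 2.45e-10). KDM6B at 24 h read 24.4, 19.6 and 19.7 and 75.7, 91.99 and 71.95 CPM (log2 fold change 1.91, SE 0.14, adjusted p = 7.85e-09). It was higher in every NXP800 library at both times. AFF4, a scaffold of the super elongation complex, rose at both times (6 h log2 fold change 1.05, adjusted p = 7.72e-08; 24 h 0.70, adjusted p = 5.51e-06), and KDM6A rose at 6 h (0.66, adjusted p = 3.82e-05). DPY30, MEN1 and KMT2B had the largest falls at 6 h (-0.37, -0.33 and -0.30), and MLLT3, DPY30 and KMT2B at 24 h (-0.45, -0.40 and -0.32).

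The retinoic acid pathway list had 18 genes, 13 of them tested, with 5 lower and 2 higher at 6 h and 2 lower and 3 higher at 24 h (medians -0.27 and 0.068). Its 7 called genes at 6 h were near the 52.8% of all tested genes, and its 5 at 24 h were below the 56.0%. The receptors RXRA and RARG and the enzyme RDH10, which makes retinaldehyde, had the largest falls at 6 h (-1.44, -0.82 and -0.91; adjusted p = 6.42e-08, 4.33e-05 and 1.28e-06). RXRA stayed lower at 24 h (-0.69, adjusted p = 9.4e-05), where CRABP1, a binding protein, also fell (-1.18) and DHRS3 and CRABP2 rose (1.498 and 1.11). DHRS3 and RXRB were the 2 that rose at 6 h (1.07 and 0.48). The DHRS3 level was low, with means of 0.282 CPM with DMSO and 0.593 CPM with NXP800 at 6 h (adjusted p = 0.0447), and of 0.440 and 1.25 CPM at 24 h. Among 27 other limb and skeletal homeobox and T-box genes, 17 were tested, with 7 lower and 4 higher at 6 h and 5 lower and 5 higher at 24 h (medians -0.23 and -0.022), beside the same 52.8% and 56.0% of all tested genes called either way.

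In that last list, TBX4, the hindlimb T-box gene, read 3.45, 3.25 and 2.73 CPM with DMSO and 0.768, 0.704 and 0.706 CPM with NXP800 at 6 h (log2 fold change -2.11, SE 0.21, adjusted p = 4.73e-07). TBX4 at 24 h read 3.65, 3.97 and 3.12 and 1.12, 0.972 and 1.60 CPM (log2 fold change -1.54, SE 0.19, adjusted p = 4.99e-06). It fell in every NXP800 library at both times. DLX6 and LMX1B were the next largest falls at 6 h (-1.21 and -0.81), and PRRX2 and MSX1 at 24 h (-1.08 and -0.82). TBX15, TBX3 and MSX2 rose most at 6 h (0.74, 0.73 and 0.71), and DLX3, MSX2 and CDX2 at 24 h (1.56, 1.14 and 0.88). CDX2, a regulator of HOX genes in the embryonic trunk, read 3.45, 2.56 and 3.09 CPM with DMSO and 6.17, 5.02 and 5.62 CPM with NXP800 at 24 h.

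**Figure D5:**
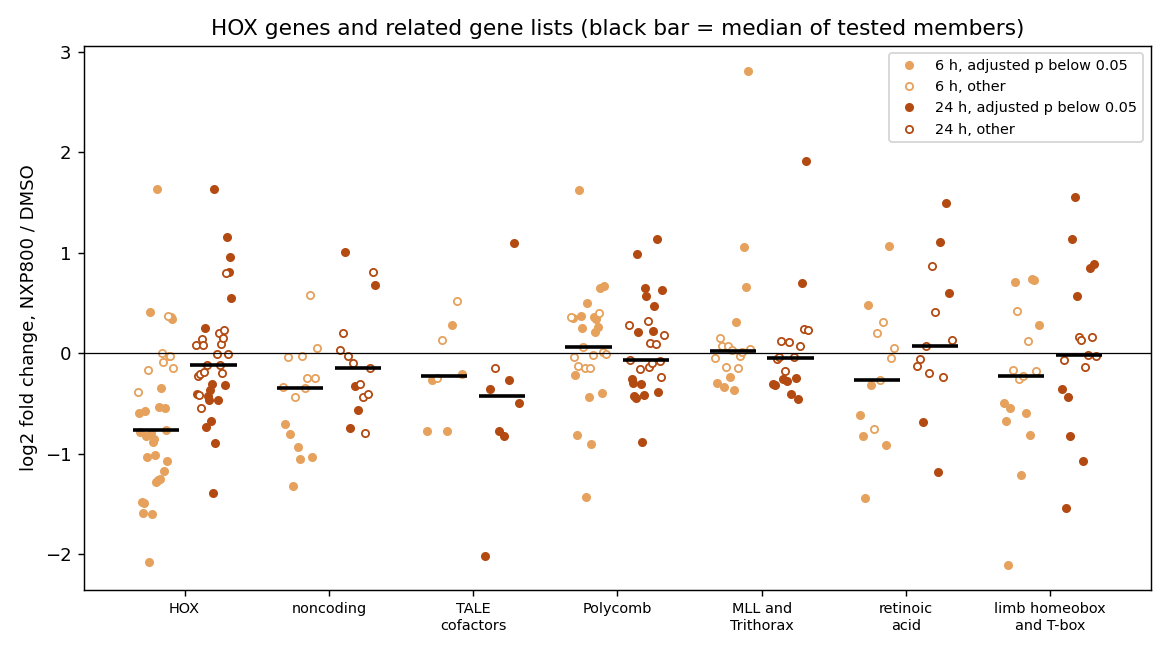
Log2 fold change of NXP800 against DMSO at 6 h (light) and 24 h (dark) for the tested HOX genes and the tested members of 6 related lists; filled points passed an adjusted p of 0.05 and black bars are medians. The HOX median was -0.76 at 6 h and -0.12 at 24 h, and the medians of the other lists lay between -0.43 and 0.068.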

How the data were processed

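Polyadenylated RNA of 12 MNNG/HOS libraries was sequenced with paired-end reads. Per the submitters' processing notes, reads were trimmed with fastp 0.20.1, aligned with STAR 2.7.5a to GRCh38 and counted per gene with HTSeq 0.12.4 on a RefSeq annotation, and the authors deposited unnormalized counts, in 1 list of genes per library. The library kit was strand-specific, and the strand setting of the counting is not given in the sources used here.

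HTSeq summary rows were kept out of library sizes and tests. In the present analysis, edgeR 4.0.16 (R 4.3.3) was run on the deposited counts of all 12 libraries in 1 model of the 4 groups, with TMM scaling, the filterByExpr filter, the quasi-likelihood test and Benjamini-Hochberg adjustment over 15979 genes. A gene was called at an adjusted p below 0.05. RPKM used the exon-union length of a GENCODE annotation, a different annotation from that of the counting. Groups followed the labels. The HOX genes and the related lists were chosen with earlier results of these data known. All HOX genes entered the counts, with values per library for those called or at or above 1 CPM in every DMSO library, and from each other list up to 3 called genes per direction and time were named. Some genes are in the counts and medians but are not reported here by name.

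On simulated counts for the 6 h comparison (15612 genes), 66 of 100 genes changed 1.5-fold and 96 of 100 changed 2-fold were recovered, with 2 other calls. No other genes were changed there, whereas 52.8% of all tested genes were called at 6 h in the data. The adjusted p cutoff was therefore stricter in the simulation, and its shares do not measure how many changes were missed in the data. Replicates differed by more than sampling noise (chi-square per degree of freedom from 7.36 to 26.4). Libraries with the same replicate number deviated together within a time (r from 0.160 to 0.329 at 6 h and 0.284 to 0.322 at 24 h) but not across times (-0.16 to 0.088). The reported fit held no replicate term, so that its calls leave this pairing out. A block on replicate number within each time was run as an alternative only. Alternatives were other normalizations, filters, samples in the fit, replicate blocks, a correction for GC content and length, leaving out each library, DESeq2 1.42.0 and another threshold. The block within each time and the MANE transcript length were added after seeing the data. Intervals and limits for counts of 0 (3 counts) cover counting error only.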

Additional observations from a re-analysis of the deposited data

Results flagged for a closer look

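For 20 HOX genes the response to NXP800 differed between 6 h and 24 h by the test of the difference itself (edgeR's quasi-likelihood test, adjusted p below 0.05). Values are the log2 fold change at 24 h minus that at 6 h, so that a positive value is a response less negative, or more positive, at 24 h. In HOXA these were HOXA3 (0.55), HOXA4 (1.07), HOXA5 (1.39), HOXA7 (0.71), HOXA9 (0.91), HOXA10 (0.84), HOXA11 (0.42) and HOXA13 (1.35). In HOXB they were HOXB4 (1.13), HOXB7 (0.70) and, with the opposite sign, HOXB2 (-0.53). In HOXC they were HOXC4 (0.52), HOXC5 (0.78), HOXC6 (0.55), HOXC10 (0.98), HOXC11 (0.70), HOXC12 (0.99) and HOXC13 (0.75), and in HOXD they were HOXD9 (0.62) and HOXD13 (0.69). The 6 h and 24 h libraries also differed in the share of reads outside annotated genes, in both treatments, and its part in these differences was not tested.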

How the results depend on the processing

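The count of HOX genes called was 27 at 6 h (23 to 28 under the alternatives other than leaving out a library, 24 to 27 on leaving out each library) and 17 at 24 h (10 to 18 on leaving out each library). It was 20 for the difference of the responses (13 to 20) and 18 between DMSO libraries (13 to 19). At an adjusted p below 0.01 it fell to 9 at 24 h and to 11 for the difference. At or above 10 CPM, 10 genes were expressed in place of 31. The lower calls at 24 h, 11 in the reported fit, numbered 5 to 13 on leaving out each library, 4 at an adjusted p below 0.01, 7 with no filter, 6 in a fit of only the libraries compared, 6 on library size, 6 with the DESeq2 Wald test and 7 with the replicate block and GC and length offsets.

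With the replicate block, 28 HOX genes were called at 6 h, 17 at 24 h and 20 for the difference, and with the block within each time 28, 21 and 24; the calls it changed stand beside the genes named, and it changed no other call of a named HOX gene in the NXP800 comparisons. With the replicate block and offsets, the counts were 28, 14 and 20.

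Genes that turned sign were not called in either fit. The HOXC8 6 h log2 fold change was 0.015 with DESeq2 size factors, 0.016 on library size, 0.031 with only the libraries compared, 0.0064 with the block and offsets and 0.016 with the DESeq2 Wald test. The HOXC4 24 h value was 0.079 on library size, 0.0078 with no filter, 0.0095 with only the libraries compared and 0.032 with the block and offsets, and that of HOXD4 was 0.076, 0.0058, 0.0076 and 0.14. Block and offsets also turned HOXC9 (0.036), HOXD3 (0.094) and HOXD4 (0.14) at 6 h and HOXB2 at 24 h (8e-04). On leaving out each library, the 6 h range was -0.10 to 0.14 for HOXC8, -0.017 to 0.63 for HOXD1, -0.57 to 0.27 for HOXD3 and -0.17 to 0.11 for HOXD4, and the 24 h range was -0.057 to 0.18 for HOXA9, -0.047 to 0.060 for HOXC4, -0.044 to 0.30 for HOXC9 and -0.11 to 0.085 for HOXD4. The cause was not tested. With 3 libraries a group, changes near 1.5-fold were often missed in the simulated data, where few genes were changed, and the share missed in the data is not known.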

Other observations

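The microRNA gene MIR196A1, which lies between HOXB9 and HOXB13, was chosen after its values were seen and was counted at low depth. It had 28, 12 and 27 counts in the 6 h DMSO libraries and 17, 15 and 21 in the 6 h NXP800 libraries. At 24 h it had 18, 16 and 13 counts with DMSO and 31, 25 and 25 counts with NXP800. The groups overlapped at 6 h and did not overlap at 24 h. Polyadenylated RNA holds precursor transcripts and not the mature microRNA.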
